A study of Homo sapiens with 6 samples.

Results

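The 10 genes described here encode the MCM2 to MCM7 subunits of the replicative helicase (MCM2, MCM3, MCM4, MCM5, MCM6 and MCM7), the factors CDC6 and CDT1 that load it, and the activation factors MCM10 and CDC45. They were chosen by symbol, from the Entrez identifiers of the deposited tables, and are 10 of the 25420 genes listed there. All 10 passed the filters on low counts. MOLM-13 is an established human acute myeloid leukaemia cell line with a KMT2A-MLLT3 (MLL-AF9) fusion and an internal tandem duplication of FLT3. Cells of this line, grown in RPMI medium with 10% FBS, received 10 µM C646 or the solvent DMSO for 2 h in all, and every culture had 100 µM 4-thiouridine (4sU) for the last 60 min. Each group had 3 libraries, and the labels do not say whether these came from separate cultures, so p-values measure only the spread between these libraries. C646 blocks the acetyltransferase domain of the coactivators CBP and p300 by competing with acetyl-CoA, and the comparison asks which new and total RNAs differ after such a short block.

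Replication licensing happens once per cell cycle. The origin recognition complex marks an origin, CDC6 and CDT1 join it, and together they place a pair of MCM2 to MCM7 rings around the DNA. In S phase the kinases CDC7-DBF4 and CDK help CDC45 and the GINS complex to bind the ring, which forms the active CMG helicase, and MCM10 helps it to start unwinding. Geminin (GMNN) and the CUL4-DDB1 ligase keep CDT1 from licensing an origin again. Many of these genes are known targets of the E2F transcription factors, and their RNAs are made mostly in late G1 and S phase.

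In SLAM-seq, 4sU that enters new RNA appears as C where the genome has T once it is alkylated, and reads with such conversions (T > C reads) mark RNA made during the labelling. The libraries are of the 3′ end type, so that each read comes from the end of a transcript and its number does not scale with transcript length. Between 7252597 and 10225448 reads per library fell on annotated 3′ UTRs, of which 477824 to 833410 were T > C reads. T > C reads made up 8.74 to 8.86% of the reads in DMSO and 6.34 to 6.71% in C646. All 8 markers of a myeloid leukaemia cell of this kind (FLT3, HOXA9, MEIS1, CD33, SPI1, MPO, LYZ and CSF1R) were read, with a summed level of 3347 to 3739 CPM, against at most 6.74 CPM for any of the T cell, B cell, erythroid, epithelial and fibroblast lists. The fibroblast pair stood at 0.812 to 2.32 CPM in DMSO and 5.62 to 6.74 CPM in C646, all of it COL1A1, while COL1A2 was at 0. The part of this in the results below was not tested.

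E2F factors bind close to gene starts, so the stretch that holds the E2F letters nearest the annotated start is shown for the members in the RefSeq promoter table (GRCh38.p14, 250 bases before to 50 after each start), which holds 8 of the 10. MCM4 and MCM5 are named only. Capitals mark the matched letters, on either strand, and each stretch is 30 bases long, read 5′ to 3′ on the strand of the gene. For MCM10 and CDC45, which held none of the letters first searched, the capitals mark TTTGGCGG, which was added after the sequences had been seen.
MCM2 (chr3:127598402-127598431, plus strand): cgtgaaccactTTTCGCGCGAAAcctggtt
MCM3 (chr6:52284728-52284757, minus strand): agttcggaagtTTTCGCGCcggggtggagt
MCM6 (chr2:135876511-135876540, minus strand): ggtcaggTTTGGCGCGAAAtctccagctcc
MCM7 (chr7:100101388-100101417, minus strand): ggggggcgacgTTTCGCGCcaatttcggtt
MCM10 (chr10:13161552-13161581, plus strand): ccggttggaatTTTGGCGGgttcagctgtg
CDC6 (chr17:40287875-40287904, plus strand): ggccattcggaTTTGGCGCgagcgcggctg
CDT1 (chr16:88803743-88803772, plus strand): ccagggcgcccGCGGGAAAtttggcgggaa
CDC45 (chr22:19479884-19479913, plus strand): aggagccgtgaTTTGGCGGgagtcttgacc

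The 4 sets of E2F letters searched were TTTGGCGC, TTTCCCGC, TTTGCCGC and TTTCGCGC. At least 1 of them stood in the promoter of 6 of the 8 members (MCM2, MCM3, MCM6, MCM7, CDC6 and CDT1), against 3.31% of the 35116 promoter windows of the table, or 3.99% of its genes. In MCM2 and MCM6 a pair of matches on opposite strands overlap, so that the 12 capitals are 1 stretch. The added TTTGGCGG stood in 4 of the 8 (MCM10, CDC6, CDT1 and CDC45), against 0.652% of windows, a count that its choice favours. The CCAAT box (CCAAT) was found in 6 of 8 members and 34.6% of windows, the GC box (GGGCGG) in 6 of 8 and 45.0%, the E box (CACGTG) in 2 of 8 and 7.26%, and the CHR letters (TTTGAA or TTCGAA) in 1 of 8 and 16.4%. Counted by gene, as the members are, these shares were 39.7, 48.3, 8.77 and 19.5%. A match is a run of letters and does not show that a factor binds there.

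Reads were counted on 1 annotated 3′ UTR for each member but CDC45. In GRCh38 these lie at chr3:127621774-127622435 for MCM2, chr6:52264014-52264587 for MCM3, chr8:47976779-47978159 for MCM4, chr22:35424256-35424502 for MCM5, chr2:135839626-135840834 for MCM6, chr7:100092728-100092931 for MCM7, chr10:13209311-13211104 for MCM10, chr17:40302002-40303161 for CDC6 and chr16:88808279-88809258 for CDT1. CDC45 has an entry of 132 bases at chr22:19520481-19520612 with 83.8% of its reads and an entry of a single base at position 19518909 with the other 16.2%. None overlaps an entry of another gene, and at most 0.392% of any member's reads were multimapped. The GC content of these entries ran from 31.1% in CDC45 to 61.9% in MCM5, around a median of 42.6% over genes.

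New RNA of the licensing genes differed from gene to gene after C646. T > C reads of MCM3, MCM4, MCM7 and CDT1 fell to between 0.289 and 0.430 of the DMSO level, while those of MCM2, MCM5, MCM6 and CDC45 stood between 0.951 and 1.27 of it and did not pass the test. MCM10 and CDC6 lay in between, at 0.559 and 0.568. Calls needed an adjusted p no higher than 0.01 and a 2-fold change either way (1 or more on the log2 scale), in edgeR's quasi-likelihood test over 7760 genes with Benjamini-Hochberg adjustment. By this rule 4 of the 10 members were called lower, against 33.8% of all tested genes, and 0 were called higher, against 2.90%. At an unadjusted p under 0.05, 6 members were lower, against 55.3% of tested genes, and 0 higher, against 5.84%. DESeq2 with size factors from all reads called 4 lower, against 31.5%, and 0 higher, against 2.78%. The median log2 fold change of the members was −0.83, against −0.84 over all tested genes. The groups did not overlap in 6 of 10 members, against 62.9% of tested genes, so that as a set the members stood near the background. In bulk RNA, fewer cells in late G1 and S phase and less RNA of these genes per cell cannot be told apart.

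Levels of T > C reads are given in CPM, counts scaled to the size of the library (all its reads on 3′ UTRs, adjusted by TMM). MCM3, which sits between MCM5 and MCM7 in the ring, had 35.9, 41.4 and 31.5 CPM in DMSO replicates 1, 2 and 3 and 12.2, 11.6 and 7.83 CPM in C646 replicates 1, 2 and 3. All 3 C646 libraries lay far below the DMSO range, and the log2 fold change was −1.79 ± 0.21 (SE, edgeR adjusted p = 2.75e-08). For MCM4, a catalytic subunit next to MCM6 and MCM7, the values were 53.3, 59.0 and 57.6 CPM in DMSO and 18.2, 20.2 and 19.0 CPM in C646. The replicates of each group were tight, the groups stood apart, and MCM4 fell by 1.57 ± 0.17 on the log2 scale (edgeR adjusted p = 9.16e-09). MCM7, which forms an active ATP site with MCM4, had 24.5, 24.3 and 14.7 CPM in DMSO and 7.46, 7.33 and 5.55 CPM in C646. DMSO replicate 3 was the lowest of its group but still above every C646 library, and the log2 fold change was −1.65 ± 0.24 (edgeR adjusted p = 1.43e-06).

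The other ring subunits did not pass the test in T > C reads. MCM2, whose tail also binds histones, had 14.7, 13.98 and 18.8 CPM in DMSO and 18.6, 17.7 and 23.9 CPM in C646. The groups overlapped, and the log2 fold change of 0.35 had a 95% interval of −0.06 to 0.75 (edgeR adjusted p = 0.149). MCM5, which forms the gate of the ring with MCM2, had 11.1, 15.8 and 10.7 CPM in DMSO and 14.7, 14.3 and 16.7 CPM in C646. Again the ranges overlapped, and the log2 fold change was 0.29 with an interval of −0.14 to 0.72 (edgeR adjusted p = 0.264). MCM6 had 10.2, 13.7 and 11.6 CPM in DMSO and 12.0, 7.82 and 13.8 CPM in C646. C646 replicate 2 was the lowest and replicate 3 the highest of all 6 libraries, and the log2 fold change of −0.07 had an interval of −0.54 to 0.40 (edgeR adjusted p = 0.816).

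CDT1, the loading factor that geminin blocks, had 13.9, 16.2 and 10.8 CPM of T > C reads in DMSO and 5.36, 7.45 and 4.86 CPM in C646. Every C646 library was below every DMSO library, and CDT1 was called at −1.22 ± 0.26 (edgeR adjusted p = 0.000219). CDC6, the ATPase that recruits the ring together with CDT1, had 7.18, 8.81 and 9.88 CPM in DMSO and 4.19, 5.25 and 5.15 CPM in C646. Its groups did not overlap either, but the log2 fold change of −0.82 ± 0.28 missed the threshold (edgeR adjusted p = 0.0152). MCM10 had 25.6, 24.1 and 19.9 CPM in DMSO and 13.5, 12.8 and 12.7 CPM in C646. It passed the p-value with a log2 fold change of −0.84 ± 0.20 (edgeR adjusted p = 0.000802) and so joined the 4 called members in a count of 5 of 10 at the p-value alone, against 38.5% of tested genes. CDC45, a core part of the active CMG helicase, had 9.92, 6.01 and 11.1 CPM in DMSO and 9.03, 7.58 and 11.4 CPM in C646. The ranges nearly coincided, and the log2 fold change was 0.05 with an interval of −0.46 to 0.57 (edgeR adjusted p = 0.881). The conversions of CDC45 per 100 covered T, given below, were by contrast at 0.282 of the DMSO mean, without overlap.

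**Figure D1:**
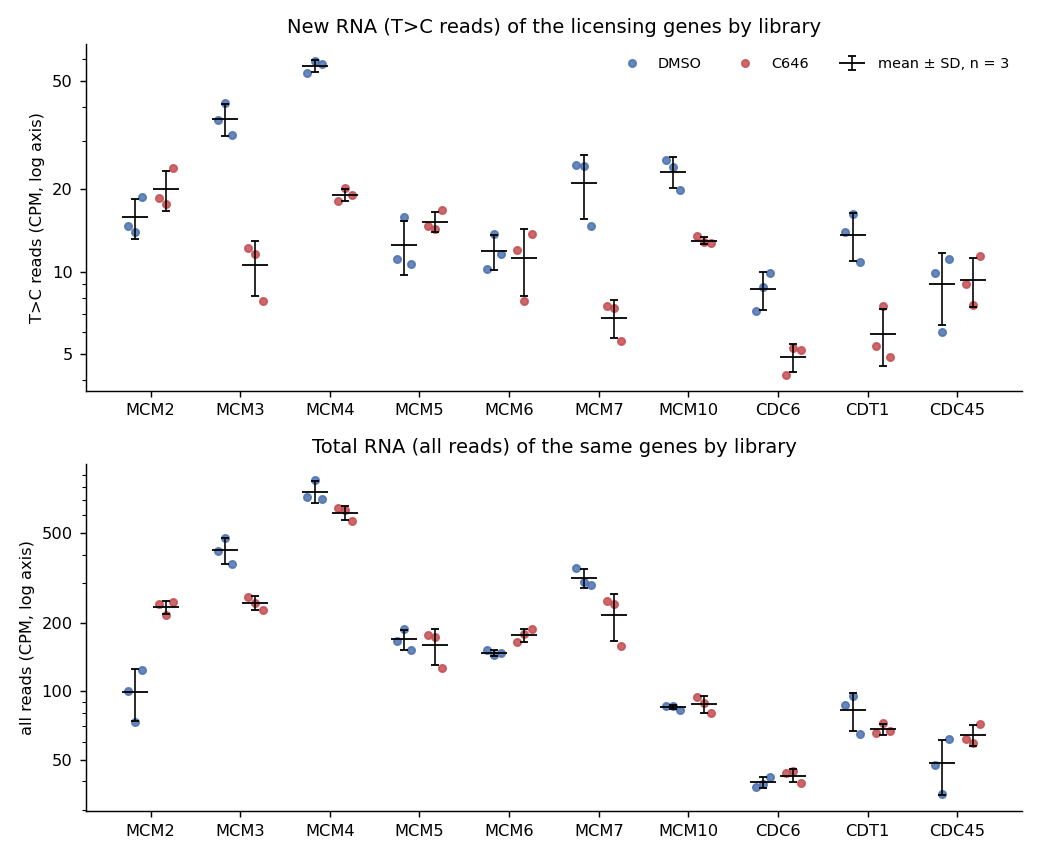
T > C reads (upper panel) and all reads (lower panel) of the 10 genes in CPM on log axes, with 1 point per library, DMSO in blue and C646 in red, and black bars for the mean ± SD of 3 libraries. In T > C reads the groups stand apart for MCM3, MCM4, MCM7, MCM10, CDC6 and CDT1, and in all reads MCM2 is higher in C646 (218 to 247 CPM against 73.1 to 125 CPM).

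These fold changes depend on the scaling and the base content of the 3′ UTR. With library sizes taken from the T > C reads themselves, the median of all tested genes moved from −0.84 to −0.05, 0 members were called lower, against 8.55% of 7801 tested genes. MCM2 and MCM5 were then called higher, at 1.13 and 1.08 (edgeR adjusted p = 4.79e-05 and 0.000232), that is 2 of 10, against 8.61%. MCM3, MCM4 and MCM7 were then at −0.99, −0.77 and −0.86 and passed the p-value, CDT1 at −0.42 did not, and MCM6 changed sign to 0.71. In DESeq2 with size factors from T > C reads MCM7 did not pass (adjusted p = 0.0146). CDC45 went from 0.05 to 0.84 (edgeR adjusted p = 0.0121). MCM10 went to −0.05 and CDC6 to −0.03 (edgeR adjusted p = 0.891 and 0.955), so that MCM10 no longer passed, as was also so with all filtered reads as library size (−0.62, edgeR adjusted p = 0.0145). With a correction for GC content, added after the data were seen, MCM3, MCM4, MCM7 and MCM10 were called lower, CDT1 was at −0.69 (edgeR adjusted p = 0.0190), CDC6 at −0.90 passed the p-value (edgeR adjusted p = 0.00793), and MCM5 at 0.96 passed the p-value (edgeR adjusted p = 0.000458).

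In total RNA most of the same genes stood closer to the DMSO level, but MCM2, MCM6 and CDC45 lay further from it than in T > C reads, at log2 fold changes of 1.24, 0.26 and 0.42, of which that of MCM2 alone passed the test. In all reads MCM2 was called higher, at 2.37 times the DMSO level, and it was the 1 member of 10 called higher, against 5.72% of 10851 tested genes. Called lower were 0 of 10, against 2.00%, and DESeq2 called 0 lower, against 2.12%, and 1 higher (MCM2), against 6.39%. At an unadjusted p under 0.05 in edgeR, 3 members were lower (MCM3, MCM4 and MCM7), against 21.3% of tested genes, and 2 higher (MCM2 and CDC45), against 21.5%. At the p-value alone 1 member, MCM3, was lower, against 6.85% of tested genes. The members' median log2 fold change was −0.02, as was that of all tested genes, and the groups did not overlap in 5 of 10 members, against 47.6% of tested genes.

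MCM2 had 101, 73.1 and 125 CPM of all reads in DMSO replicates 1, 2 and 3 and 243, 218 and 247 CPM in C646 replicates 1, 2 and 3. Every C646 library was well above every DMSO library, with a log2 fold change of 1.24 ± 0.17 (edgeR adjusted p = 0.000173). Its reads without a T > C conversion stood at 83.8 ± 23.5 CPM in DMSO and 215.9 ± 13.3 CPM in C646 (SD, n = 3), so that the difference lay almost wholly in reads that carried no conversion. MCM3 had 419, 476 and 365 CPM in DMSO and 263, 247 and 229 CPM in C646. The groups stood apart and MCM3 fell by 0.77 ± 0.14 on the log2 scale (edgeR adjusted p = 0.00101), short of the fold cutoff. Without C646 replicate 2, the adjusted p of MCM3 was 0.0103.

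MCM4 had 723, 860 and 708 CPM of all reads in DMSO and 644, 633 and 564 CPM in C646. MCM7 had 353, 303 and 296 CPM in DMSO and 252, 242 and 159 CPM in C646. In both genes the C646 libraries were the lower 3, but neither passed, with log2 fold changes of −0.31 ± 0.13 and −0.54 ± 0.17 (edgeR adjusted p = 0.0813 and 0.0226). MCM6 had 153, 145 and 147 CPM in DMSO and 165, 179 and 189 CPM in C646, which did not overlap either, at a log2 fold change of 0.26 ± 0.13 (edgeR adjusted p = 0.129). MCM5 had 167, 188 and 153 CPM in DMSO and 178, 174 and 127 CPM in C646, with a log2 fold change of −0.09 ± 0.15 (edgeR adjusted p = 0.701). The ranges of MCM5 overlapped, with C646 replicate 3 the lowest library.

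Among the loading and activation factors no member passed in all reads. CDC6 had 37.7, 39.2 and 42.1 CPM in DMSO and 43.6, 44.6 and 39.3 CPM in C646 (log2 fold change 0.10, interval −0.19 to 0.39). CDT1 had 87.3, 95.2 and 64.9 CPM in DMSO and 65.4, 72.5 and 66.6 CPM in C646 (log2 fold change −0.28, interval −0.58 to 0.03). For both loaders the ranges of the 2 groups overlapped. MCM10 had 86.6, 86.4 and 82.9 CPM in DMSO and 94.96, 88.7 and 80.0 CPM in C646 (log2 fold change 0.04, interval −0.22 to 0.30). CDC45 had 47.5, 35.1 and 61.6 CPM in DMSO and 61.5, 59.1 and 71.9 CPM in C646 (log2 fold change 0.42, interval 0.05 to 0.78, edgeR adjusted p = 0.0984). DMSO replicate 2 was the lowest library of CDC45, as it was of MCM2.

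**Figure D2:**
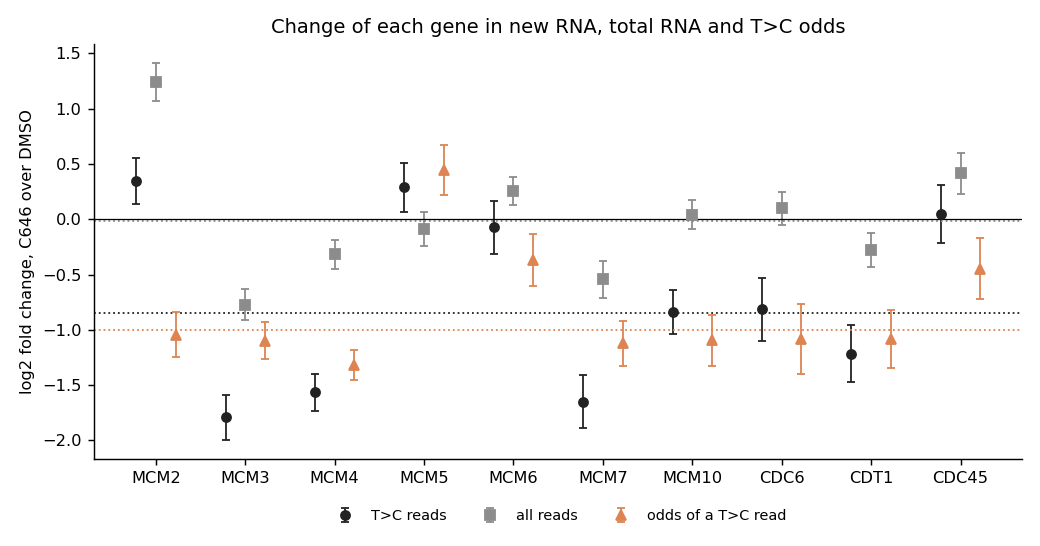
Log2 fold changes of C646 over DMSO for each gene in T > C reads (black circles), all reads (grey squares) and the odds of a T > C read (orange triangles), with SE bars. Dotted lines give the median over all tested genes for each (−0.84, −0.02 and −1.004), and the odds of MCM5 are the only ones above 0.

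The share of a gene's reads that carry T > C conversions needs no scaling between libraries. It was tested as the odds of T > C against other reads, in an edgeR model with a library term. Here 7 of the 10 members were called lower (MCM2, MCM3, MCM4, MCM7, MCM10, CDC6 and CDT1), against 38.2% of 7760 tested genes. The other members, MCM5, MCM6 and CDC45, did not pass, and 0 were called higher, against 0.786% (0 also at an unadjusted p under 0.05; DESeq2 was not run on the odds). The odds of the called members were 0.402 to 0.485 of those in DMSO, log2 values of −1.32 to −1.04, close to the median of −1.004 over all tested genes. The groups did not overlap in 8 of 10 members, against 66.6% of tested genes. Without DMSO replicate 2, 3 members were called lower.

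MCM4 had shares of 7.37, 6.87 and 8.14% in DMSO and 2.82, 3.18 and 3.37% in C646. All C646 libraries were under every DMSO value, and the log2 odds ratio was −1.32 ± 0.14 (edgeR adjusted p = 4.56e-08). In MCM3 the shares were 8.56, 8.69 and 8.64% in DMSO and 4.63, 4.70 and 3.42% in C646 (edgeR adjusted p = 1.20e-05). MCM7 had 6.94, 8.03 and 4.98% in DMSO and 2.96, 3.03 and 3.49% in C646 (edgeR adjusted p = 8.14e-05). For these 3 ring subunits the log2 fold changes in all reads, −0.77 to −0.31, were nearer to 0 than those in T > C reads. MCM2 had shares of 14.5, 19.1 and 15.1% in DMSO and 7.66, 8.12 and 9.66% in C646 (log2 odds ratio −1.04 ± 0.20, edgeR adjusted p = 0.000165). In MCM2 the lower share went with more total reads and a T > C level that did not pass the test.

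MCM10 and the loaders had larger shares than MCM3, MCM4 and MCM7. MCM10 stood at 29.6, 27.8 and 24.0% in DMSO and 14.2, 14.5 and 15.9% in C646 (edgeR adjusted p = 0.000390). CDC6 had 19.0, 22.5 and 23.5% in DMSO and 9.61, 11.8 and 13.1% in C646 (edgeR adjusted p = 0.00496). CDT1 had 16.0, 17.03 and 16.7% in DMSO and 8.20, 10.3 and 7.29% in C646 (edgeR adjusted p = 0.00117). In all 3 the C646 libraries lay below the DMSO range, with log2 odds ratios of −1.10, −1.08 and −1.08. The call of CDC6 was lost without any of 5 of the 6 libraries (adjusted p up to 0.0296), and that of CDT1 without DMSO replicate 2 (edgeR adjusted p = 0.0101) or C646 replicate 3 (log2 odds ratio −0.95, short of the fold cutoff). At this cutoff MCM2 was no longer called without DMSO replicate 2 (−0.91) or C646 replicate 1 (−0.97), MCM3 without C646 replicate 3 (−0.95) and MCM7 without DMSO replicate 2 (−0.96), while MCM4 and MCM10 were called with any 1 of the 6 libraries left out.

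MCM5 had shares of 6.62, 8.395 and 6.98% in DMSO and 8.22, 8.19 and 13.2% in C646, with C646 replicate 3 well above the rest (log2 odds ratio 0.45, interval 0.00 to 0.89, edgeR adjusted p = 0.0870). MCM6 had 6.70, 9.48 and 7.90% in DMSO and 7.31, 4.37 and 7.30% in C646 (log2 odds ratio −0.37, interval −0.83 to 0.09). CDC45 had 20.9, 17.1 and 18.0% in DMSO and 14.7, 12.8 and 15.8% in C646 (log2 odds ratio −0.45, interval −0.99 to 0.10). The groups overlapped in MCM5 and MCM6 but not in CDC45. A 95% Wilson interval for the share of 1 library was 0.928 percentage points wide at its narrowest (MCM4, C646 replicate 1, 139 of 4925 reads) and 9.74 points at its widest (CDC6, DMSO replicate 2, 63 of 280 reads), and covers counting error only.

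In DMSO the share set the members apart from one another. Among 5837 tested genes with a mean of 20 or more T > C reads, the median share was 13.5% in DMSO. MCM10 (27.1%), CDC6 (21.7%), CDC45 (18.7%), CDT1 (16.6%) and MCM2 (16.2%) lay above this median, at percentiles 59.1 to 80.4. MCM3 (8.63%), MCM6 (8.02%), MCM4 (7.46%), MCM5 (7.33%) and MCM7 (6.65%) lay below it, at percentiles 17.7 to 28.0. These shares are not adjusted for T content, which was 20.1% in the entry of CDT1 and 40.9% in the longer entry of CDC45. In conversions per 100 covered T, described below, CDC45 was the lowest member in DMSO, at 0.383. By that measure MCM2, MCM10, CDC6 and CDT1 had 0.867 to 1.54, and MCM3 to MCM7 had 0.417 to 0.590. After C646 the median share was 7.49%, and MCM5 stood at percentile 62.2, against 21.4 in DMSO. That place of MCM5 rests in part on C646 replicate 3 (13.2%, against 8.22 and 8.19%). MCM6 went from percentile 24.9 to 42.1, CDC45 from 66.2 to 77.0 and MCM4 from 22.2 to 16.1. The remaining members stood slightly lower than in DMSO.

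Conversions were also counted per read and per T. Over all 3′ UTRs a T > C read held 2.00 to 2.11 conversions in DMSO and 1.87 to 1.91 in C646. For 9 of the members the group means lay between 1.30 and 2.34, and the groups did not overlap in MCM2 (2.07 ± 0.25 and 1.63 ± 0.17) and MCM7 (1.74 ± 0.04 and 1.504 ± 0.141). With CDC45 this made 3 of 10 members, against 26.4% of 7549 genes with a value in every library. CDC45 had under 1 conversion per T > C read, 0.690 ± 0.231 in DMSO and 0.265 ± 0.095 in C646 (SD, n = 3). Only conversions at T positions inside its short entries are counted, and the part of this in the low values was not tested. The exact permutation test cannot go below p = 0.1 with 3 libraries against 3, and no member was below 0.333 after adjustment over the 10 members. Conversions per 100 covered T were lower in C646, without overlap, in the 8 members other than MCM5 and MCM6, at 0.282 to 0.503 of the DMSO mean (exact permutation p = 0.1 each, 0.125 adjusted). The same held for 65.5% of 7747 tested genes with a value in every library. In MCM10, for example, they stood at 1.41 ± 0.27 in DMSO and 0.624 ± 0.105 in C646 (SD, n = 3). CDC45 had the lowest ratio, 0.282, with 0.383 ± 0.090 in DMSO and 0.108 ± 0.035 in C646, although its T > C reads stood at 1.04 of the DMSO level. The cause of this difference between the measures was not tested. MCM5 had 0.417 ± 0.071 in DMSO and 0.527 ± 0.103 in C646, and MCM6 had 0.461 ± 0.112 and 0.367 ± 0.130, with overlap in both.

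The ring holds 1 copy of each of MCM2 to MCM7, so the reads of the subunits were also set against their sum within each library, a measure added after the data had been seen. T > C reads of all 6 subunits together stood at 154.3 ± 12.3 CPM in DMSO and 82.9 ± 3.9 CPM in C646, while all reads stood at 1918 ± 125 CPM and 1651 ± 120 CPM (SD, n = 3). Within the T > C reads, MCM2 made up 9.80, 8.31 and 13.0% in DMSO and 22.4, 22.4 and 27.5% in C646. MCM5 went from 8.06 ± 1.16% to 18.3 ± 0.9% and MCM6 from 7.67 ± 0.72% to 13.4 ± 3.1%. MCM4 went from 36.8 ± 2.6% to 23.1 ± 2.1%, MCM3 from 23.4 ± 1.5% to 12.8 ± 3.3% and MCM7 from 13.7 ± 3.2% to 8.22 ± 1.59% (SD, n = 3). None of the 6 overlapped between the groups (exact permutation p = 0.1 each, the smallest possible here, and 0.1 adjusted). Such shares were not computed for other sets of genes, and T > C levels in CPM did not overlap in 62.9% of tested genes. In CPM the groups overlapped for MCM2, MCM5 and MCM6. Such shares sum to 100%, so that a lower share of some subunits raises the others.

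Within all reads the make-up differed by fewer percentage points between the groups than within T > C reads for each of the 6 subunits. MCM2 went from 5.26 ± 1.69% to 14.4 ± 1.8% and MCM3 from 21.8 ± 1.5% to 14.9 ± 0.3%. MCM4 stayed the most read subunit, at 39.8 ± 2.2% in DMSO and 37.2 ± 0.2% in C646, and MCM5 overlapped, at 8.83 ± 0.34% and 9.64 ± 1.08% (SD, n = 3). The 5 subunits other than MCM5 did not overlap (exact permutation p = 0.1 each, 0.12 adjusted). No such share was computed for other sets of genes here either, and levels of all reads in CPM did not overlap in 47.6% of tested genes. These are shares of reads, not of RNA molecules or protein.

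**Figure D3:**
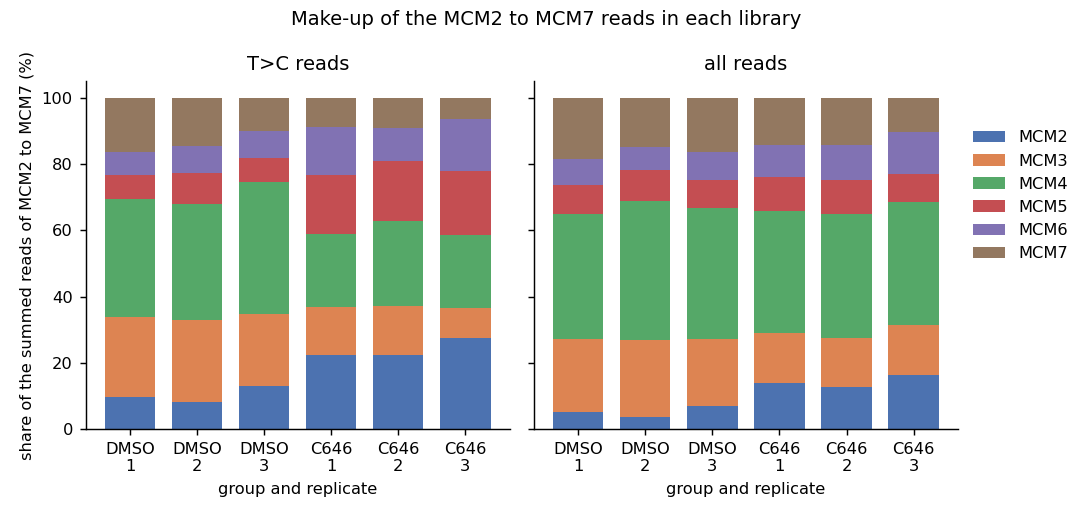
Reads of each ring subunit as a share (%) of the summed reads of MCM2 to MCM7, with 1 stacked bar per library, T > C reads on the left and all reads on the right. In T > C reads MCM2 takes 8.31 to 13.0% of the DMSO bars and 22.4 to 27.5% of the C646 bars, and MCM4 35.1 to 39.7% and 21.9 to 25.5%.

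Other genes of the replication pathway were counted from 9 lists of 92 genes. In T > C reads, 23 of the 81 tested list genes (28.4%) were called lower, against 33.8% of all tested genes, and 0 higher, against 2.90% (1 higher at an unadjusted p under 0.05, SLBP, and 0 by DESeq2), with a median log2 fold change of −0.83. With library sizes from T > C reads, 7 list genes were called lower in edgeR and 5 in DESeq2, and 1 higher in each (SLBP, at 1.36 and 1.39). Over all tested genes edgeR then called 8.55% lower and 8.61% higher, and the shares in DESeq2 were not counted. Of the list genes described below with values, GMNN (−0.87 and −0.83), DDB1 (short of the fold cutoff in both, −0.86 in DESeq2) and CLSPN (−1.15 and −1.11, adjusted p = 0.0216 and 0.0397) were then not called in edgeR or DESeq2, E2F1 was called in edgeR but not in DESeq2 (adjusted p = 0.0181), and GINS2 and CCNE1 were called in both. In all reads, 2 of 89 tested list genes were called lower (CCNE1 and CDC25A), against 2.00%, and 1 higher (RB1), against 5.72%. The odds of a T > C read were lower in 33 of 81 (40.7%), against 38.2%. The called list genes that the naming rule did not pick were named after their values were seen.

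Among the 6 subunits of the origin recognition complex, 0 were called lower in T > C reads (1 at an unadjusted p under 0.05, ORC2, and 0 by DESeq2). Their median log2 fold change was −0.68, from −0.76 ± 0.39 in ORC5 to −0.52 ± 0.37 in ORC1 among those with enough reads to be named. ORC5 had 39, 49 and 10 T > C reads in the C646 libraries, and without C646 replicate 3 it was at −0.27. In the list of licensing control, 4 of 9 were called lower: geminin (GMNN), CUL4A, DDB1 and RBX1. GMNN had 30.1, 27.8 and 27.3 CPM of T > C reads in DMSO and 12.7, 8.55 and 5.75 CPM in C646. The groups stood apart, at a log2 fold change of −1.67 ± 0.23 (edgeR adjusted p = 6.18e-07). DDB1, the adaptor of the ligase that marks CDT1 for destruction, was at −1.68 ± 0.26, and SKP2, part of another ligase for CDT1, at −0.28 ± 0.35 without passing.

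In helicase activation, 3 of 10 tested genes were called lower, the GINS subunits GINS2 and GINS4 and the helicase RECQL4. GINS2 was at −2.40 ± 0.39 (edgeR adjusted p = 8.51e-06), with 7.60, 8.95 and 6.76 CPM in DMSO and 0.785, 0.978 and 2.48 CPM in C646. Without C646 replicate 3 it was at −3.11. TOPBP1, which helps CDC45 to load, was at −0.61 ± 0.30 and DBF4, the activator of the CDC7 kinase, at −0.45 ± 0.49, and neither passed. Of the other MCM proteins 0 of 2 tested were called (MCM8, which acts in DNA repair, at −0.70 ± 0.26, lower at an unadjusted p under 0.05, and 0 by DESeq2). In fork protection 2 of 6 were called lower, CLSPN and LRR1. CLSPN, the checkpoint adaptor claspin, was at −1.93 ± 0.38 and the unfoldase VCP, which takes the helicase off the DNA, at −0.29 ± 0.21.

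Among DNA polymerases and primase 3 of 11 were called lower (POLD2, POLE and POLE3). POLD1, the catalytic subunit of polymerase delta, was at −1.18 ± 0.46 (edgeR adjusted p = 0.0315) and POLD3 at −0.38 ± 0.25. POLD1 had 6, 11 and 30 T > C reads in the C646 libraries, and without C646 replicate 3 it was called lower at −1.88 (edgeR adjusted p = 0.00276), with −0.86 as the value nearest to 0 when another library was left out. Of the clamp, clamp loader and lagging strand genes 0 of 12 were called lower (7 at an unadjusted p under 0.05, and 0 by DESeq2). PCNA, the sliding clamp, had 55.1, 49.6 and 57.0 CPM in DMSO and 46.6, 41.5 and 44.6 CPM in C646. The groups did not overlap but the log2 fold change of −0.29 ± 0.16 did not pass (edgeR adjusted p = 0.122). With the GC correction PCNA (−0.73), MCM8 (−0.90) and TOPBP1 (−0.96) passed the p-value, short of the fold cutoff (edgeR adjusted p = 0.000302, 0.00396 and 0.00903), whereas with library sizes from T > C reads all 3 were above 0. The clamp loader subunit RFC2 was at −0.90 ± 0.46 and DNA ligase LIG1 at 0.15 ± 0.32.

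In the list of E2F and pocket proteins 4 of 13 tested genes were called lower (E2F1, E2F4, E2F6 and RBL1). E2F1, an activator of licensing genes, had 9.92, 15.0 and 7.85 CPM in DMSO and 2.49, 3.18 and 3.37 CPM in C646. Every C646 library was under the DMSO range, at a log2 fold change of −1.84 ± 0.31 (edgeR adjusted p = 1.13e-05), whereas RBL2, a pocket protein of resting cells, was at 0.65 ± 0.45 without passing. Of the 12 genes of nucleotide supply and S phase, 7 were called lower (RRM2, TYMS, TK1, CCNE1, CCNA2, CDC25A and UHRF1), with a median log2 fold change of −1.55, beside 33.8% called lower and a median of −0.84 over all tested genes. CCNE1, the cyclin E1 that drives entry into S phase, had 7.70, 10.2 and 11.1 CPM in DMSO and 0.654, 0.367 and 0.396 CPM in C646 (3 to 5 T > C reads per library), a log2 fold change of −4.33 ± 0.42 (edgeR adjusted p = 1.02e-09). SLBP, which binds histone mRNA, was at 0.57 ± 0.22 (edgeR adjusted p = 0.0265).

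A protein-coding gene starts within 1000 bases of a member on the opposite strand in 4 cases: TPRA1 at 143 bases from MCM2, PRKDC at 7 from MCM4, AP4M1 at 391 from MCM7 and UFD1 at 255 from CDC45. TPRA1, a membrane protein gene, was at −1.08 ± 0.46 in T > C reads (edgeR adjusted p = 0.0445), on the other side of 0 from MCM2. PRKDC, the catalytic subunit of the DNA-dependent protein kinase, was at −0.84 ± 0.25 (edgeR adjusted p = 0.00528), and passed the p-value but not the fold cutoff. With library sizes from T > C reads it was at −0.058 in edgeR and −0.026 in DESeq2 (adjusted p = 0.890 and 0.961), and with the GC correction it was called lower at −1.06 (edgeR adjusted p = 0.000653). UFD1, a cofactor of VCP, was called lower at −1.44 ± 0.46 (edgeR adjusted p = 0.00927), beside 0.05 for CDC45. The call of UFD1 was lost with library sizes from T > C reads (−0.65 in edgeR and −0.61 in DESeq2, adjusted p = 0.307 and 0.422), in DESeq2 with size factors from all reads (adjusted p = 0.0139) and with all filtered reads (edgeR adjusted p = 0.0305). Leaving out 1 library took the edgeR adjusted p of UFD1 to as much as 0.0690 and that of PRKDC to 0.0530, and UFD1 was at −2.06 without C646 replicate 2. AP4M1, a subunit of an adaptor complex for vesicles, had 0 to 7 T > C reads per library and was not tested. The differences between a member and its neighbour were not tested.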

How the data were processed

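SLAM-seq libraries of MOLM-13 cells (3 DMSO, 3 C646) were prepared with the QuantSeq 3′ FWD kit. Per the file headers, the authors used SLAM-Dunk 0.4.1 on a 3′ UTR annotation of hg38, with alignment to GRCh38; the submitters' processing notes name CASAVA 1.9. The authors deposited raw counts per 3′ UTR entry, not normalized, of reads, T > C reads, conversions and multimapped reads. They also deposited the coverage on T positions (a signal), the reads as CPM of all filtered reads, and a conversion rate, which is a fraction. The CPM column served only to recover the filtered reads per library, and the conversion rate was not used. The authors' own test took reads with at least 2 conversions, whereas the deposited T > C counts were used here. No library without 4sU was analysed here.

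Counts were summed per gene, with symbols for 25310 of 25420 genes. T bases in the tables matched GRCh38 for 100% of the entries looked up (1 per gene). They are listed as 0 for C646 replicate 3, and that column was not used. Testing used edgeR 4.0.16 in R 4.3.3 (glmQLFit, glmQLFTest, filterByExpr, Benjamini-Hochberg adjustment over all tested genes). Library sizes were TMM-scaled totals of all reads, for T > C reads and all reads alike. SEs were derived from the log2 fold change and the F statistic, and 95% intervals from the SEs. The odds model held T > C and other reads of each library, with library as a factor and treatment acting on the T > C reads. Fits were tested on simulated data. Shares and conversions per library were compared by two-sided exact permutation tests with Benjamini-Hochberg adjustment over the members of each measure. Tables were made with Python 3.11.15, pandas 2.3.3 and scipy 1.17.1.

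The members, gene lists and naming rule were chosen with earlier results of these data known. Named were the members, E2F1, GMNN, DBF4, PCNA, the lowest and highest gene of each list in T > C reads (at least 20 per library on average), and divergent neighbours in GENCODE. Alternatives were other scalings (TMM on T > C reads, plain totals, DESeq2 size factors, all filtered reads), DESeq2 1.42.0, other filters, 1 entry per gene, a GC correction, a replicate block and each library left out. Neither the labels nor the methods give a batch.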

Additional observations from a re-analysis of the deposited data

How the results depend on the processing

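In T > C reads, 4 members were called lower, and the count was again 4 under every alternative but the following (under the GC correction MCM10 took the place of CDT1). With TMM on the T > C reads 0 were called lower and 2 higher, 7 list genes were lower and 1 higher, and the members' median was −0.038. Of all tested genes 8.55% were then called lower and 8.61% higher. With DESeq2 and size factors from T > C reads 0 were called lower and 2 higher, 5 list genes were lower and 1 higher, and the median was −0.0064. With all filtered reads, added after seeing the data, 3 were called lower, as CDT1 at −0.997 fell just short of the fold cutoff. The members' median was then −0.61 in T > C reads and 0.19 in all reads (all tested genes −0.62 and 0.20). With a minimum mean of 50 T > C reads, 12 list genes were lower among fewer genes tested. Leaving out each library gave 4 members called lower (19 to 26 list genes) and medians of −0.85 to −0.79 in T > C reads. It gave 1 member called higher in all reads with medians of −0.09 to 0.08, and 3 to 6 called lower in odds, with medians of −1.09 to −1.01.

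Signs turned as follows, none past the threshold except PCNA under DESeq2 with size factors from T > C reads (adjusted p = 0.00372, below the fold cutoff). TMM on T > C reads and DESeq2 with those size factors gave, in that order, 0.71 and 0.74 for MCM6, 0.33 and 0.37 for DBF4, 0.51 and 0.54 for PCNA, 0.042 and 0.096 for ORC5, 0.27 and 0.31 for ORC1, 0.50 and 0.54 for SKP2, 0.089 and 0.12 for MCM8, 0.18 and 0.22 for TOPBP1, 0.50 and 0.53 for VCP, and 0.41 and 0.45 for POLD3. DESeq2 gave 0.0011 for CDC6. All filtered reads gave 0.15 for MCM6 in T > C reads and 0.13 for MCM5 in all reads. The GC correction gave −0.31 for CDC45 in T > C reads and 0.28 for MCM5, −0.11 for MCM10 and 0.027 for CDT1 in all reads. Leaving out 1 library ran from −0.25 to 0.13 for MCM6, −0.16 to 0.22 for CDC45 and −0.37 to 0.41 for LIG1 in T > C reads, and from −0.17 to 0.059 for MCM5 and −0.018 to 0.11 for MCM10 in all reads. The cause was not tested.

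Same-numbered DMSO and C646 libraries share only a number. Their deviations from the group means correlated at 0.03, 0.04 and 0.07 in T > C reads and at −0.0015, 0.14 and 0.23 in all reads. With a replicate block, 4 members were called lower in T > C reads (median −0.82), 24 list genes were lower, 1 member was called higher in all reads (median −0.03) and 7 were lower in odds (median −1.09). MCM7 in all reads passed the p-value with the block (−0.57, adjusted p = 0.00179) and with no filter (−0.54, adjusted p = 0.00190). Among the members depth limits CDC6 most, with 32 to 73 T > C reads per library. Some of the other named genes had fewer, such as DBF4 with 11 to 25.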
